A study of Mus musculus with 12 samples.

Results

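The 33 genes described here are markers of liver macrophages, taken by symbol from a gene table of 56748 genes. All 33 were present in the table. They comprise 8 markers of resident Kupffer cells, 13 surface and lysosome genes shared by macrophages, 3 subunits of complement C1q, 2 signaling adaptors, 5 markers of lipid-associated macrophages and 2 chemokine receptors of monocytes. RNA was sequenced from whole livers of mice fasted for 24 h, with 4 livers in each of 3 genotypes. WT livers carried floxed alleles of Cpt1a, Cpt1b and Cpt2 per the labels. SKO livers were liver-specific knockouts of Cpt2, the inner mitochondrial membrane enzyme that long-chain fatty acids need for beta-oxidation. DKO livers lacked Cpt2 and Atf3, a stress-induced transcription factor of the ATF and AP-1 families, in a liver-specific manner. The study made its liver knockouts with Albumin-Cre, which is driven by a hepatocyte promoter, so the deletions are not directed at macrophages. The labels name no Atf3 allele for the WT livers, and the study's description of its RT-qPCR controls names floxed Atf3 and Cpt2 instead.

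Kupffer cells are the resident macrophages of the liver sinusoids, where they clear particles, bacteria and aged red cells from portal blood. They depend on the receptor Csf1r and are marked by scavenger and complement receptors such as Marco, Clec4f, Timd4 and Vsig4. In fatty liver disease a further macrophage population, called lipid-associated and often derived from monocytes, is known for Trem2, Cd9, Spp1 and Gpnmb. Cd68, Cd9, Lgals3, Spp1 and Slc40a1 are not restricted to macrophages, and Spp1 is also a marker of cholangiocytes, the cells of the bile ducts. In RNA from whole tissue, fewer cells of a type and less RNA per cell cannot be told apart.

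The libraries held 14710304 to 20030055 counts, and the 33 genes took 0.0591% to 0.12% of them. Cpt2 was at 199 to 252 counts per 1000000 (CPM, scaled over the 12 livers) across the WT livers, 108 to 157 across the SKO livers and 101 to 127 across the DKO livers, so that each knockout liver lay under each WT liver. Counts of Atf3 ranged from 17 to 39 in WT and from 259 to 1056 in SKO livers. For DKO livers they were 164, 177, 265 and 5 in order of replicate, and a count over the whole gene does not separate deleted from retained exons. The hepatocyte markers summed to 41827 to 115566 CPM over the 12 livers. Albumin was at 75234 CPM in DKO replicate 4, against 24988 to 28504 in the other DKO livers and 51889 to 65487 in WT livers. Xist, which is transcribed in female cells, had 18063 counts in SKO replicate 3 and 20855 in DKO replicate 4, and these livers had 2 and 0 counts over the Y-linked genes examined. The other 10 livers had at most 19 counts of Xist and at least 2741 Y-linked counts. The labels give no sex and the study describes the sequenced mice as male, so each result below is also given without SKO replicate 3 or DKO replicate 4 where it rests on them.

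Promoter sequences are shown for 3 members that were higher in SKO livers (Cd68, Lgals3 and Cd9) and for 2 members that followed the resident macrophage pattern (Vsig4 and Laptm5). They are the 250 bases before the start of each gene in the RefSeq promoter table of build GRCm38.p6, which had entries for 26 of the 33 members. The windows were searched on both strands for GAGGAA, the core bound by the myeloid factor PU.1, for TGACTCA and its reverse complement TGAGTCA, the AP-1 element, and for TGACGTCA, the ATF and CREB element. Capitals mark the matches.
Cd68, chr11:69666171-69666420, minus strand: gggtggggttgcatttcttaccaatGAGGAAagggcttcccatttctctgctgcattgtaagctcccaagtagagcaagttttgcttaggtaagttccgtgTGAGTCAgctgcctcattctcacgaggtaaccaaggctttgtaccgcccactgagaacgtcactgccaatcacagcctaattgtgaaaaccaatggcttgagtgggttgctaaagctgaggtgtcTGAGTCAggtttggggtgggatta
Lgals3, chr14:47373610-47373859, plus strand: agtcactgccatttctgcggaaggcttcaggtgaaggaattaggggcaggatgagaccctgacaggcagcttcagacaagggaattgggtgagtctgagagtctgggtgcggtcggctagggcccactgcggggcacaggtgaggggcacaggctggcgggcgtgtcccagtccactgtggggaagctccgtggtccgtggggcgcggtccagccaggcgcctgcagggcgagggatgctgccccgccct
Cd9, chr6:125494761-125495010, minus strand: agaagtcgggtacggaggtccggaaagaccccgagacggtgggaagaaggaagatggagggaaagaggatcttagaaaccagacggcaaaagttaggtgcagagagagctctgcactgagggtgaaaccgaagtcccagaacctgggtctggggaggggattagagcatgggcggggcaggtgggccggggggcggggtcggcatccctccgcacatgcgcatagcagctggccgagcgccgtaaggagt
Vsig4, chrX:96293439-96293688, minus strand: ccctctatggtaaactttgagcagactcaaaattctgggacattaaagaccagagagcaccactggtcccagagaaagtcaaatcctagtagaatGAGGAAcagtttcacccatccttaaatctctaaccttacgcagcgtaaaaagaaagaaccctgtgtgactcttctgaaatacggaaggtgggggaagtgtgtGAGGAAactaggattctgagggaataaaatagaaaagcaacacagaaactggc
Laptm5, chr4:130913066-130913315, plus strand: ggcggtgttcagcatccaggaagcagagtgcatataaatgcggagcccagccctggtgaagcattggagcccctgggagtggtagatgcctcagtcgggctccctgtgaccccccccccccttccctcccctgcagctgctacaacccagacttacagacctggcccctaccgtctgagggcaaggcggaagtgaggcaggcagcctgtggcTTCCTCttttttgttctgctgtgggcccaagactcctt

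The Cd68 window held GAGGAA starting 225 bases before the gene start and TGAGTCA starting at 149 and 24 bases before it. The Vsig4 window held GAGGAA at 155 and 53 bases before the start, and the Laptm5 window held its reverse complement TTCCTC at 38 bases. None of the searched letters occurred in the Lgals3 and Cd9 windows. Over the members, GAGGAA or its reverse complement was in 12 of 28 promoter entries (42.9%), against 23.3% of the 32851 promoters in the table. The AP-1 element was in 3 of the 28 (10.7%, those of Folr2, Itgax and Cd68), against 4.46% of all promoters, and TGACGTCA was in 0 of 28, against 1.55%. These matches are descriptions of letters and do not locate a bound factor.

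Per length of gene, as the fragments per kilobase and per 1000000 fragments (FPKM) deposited by the authors, Cd5l, a scavenger protein secreted by Kupffer cells, was the most abundant member in WT livers, with 46.3 ± 15.1 FPKM (mean ± SD, n = 4). It was followed by the lectin Clec4f with 38 ± 8.47, the complement subunit C1qa with 35.7 ± 7.04, the lysozyme Lyz2 with 35.5 ± 12.3 and C1qb with 34.6 ± 10.6 FPKM. The SDs of these 5 neighbours were larger than the gaps between them. The lipid receptor Trem2 and the integrin Itgax of lipid-associated macrophages were at 0.119 ± 0.0588 and 0.158 ± 0.0928 FPKM, and the monocyte receptors Ccr2 and Cx3cr1 at 0.16 ± 0.0717 and 0.113 ± 0.0506. Each of the 8 resident Kupffer cell markers had a higher mean FPKM in WT livers than these last 4 genes. By the mean FPKM of SKO livers, Cd68 moved from rank 16 to rank 4 among the 33 members, Lgals3 from 24 to 12 and Cd14 from 25 to 17, while Spp1 moved from 10 to 21. Lyz1, the near-identical paralog of Lyz2, had at most 5 counts in any liver.

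**Figure D1:**
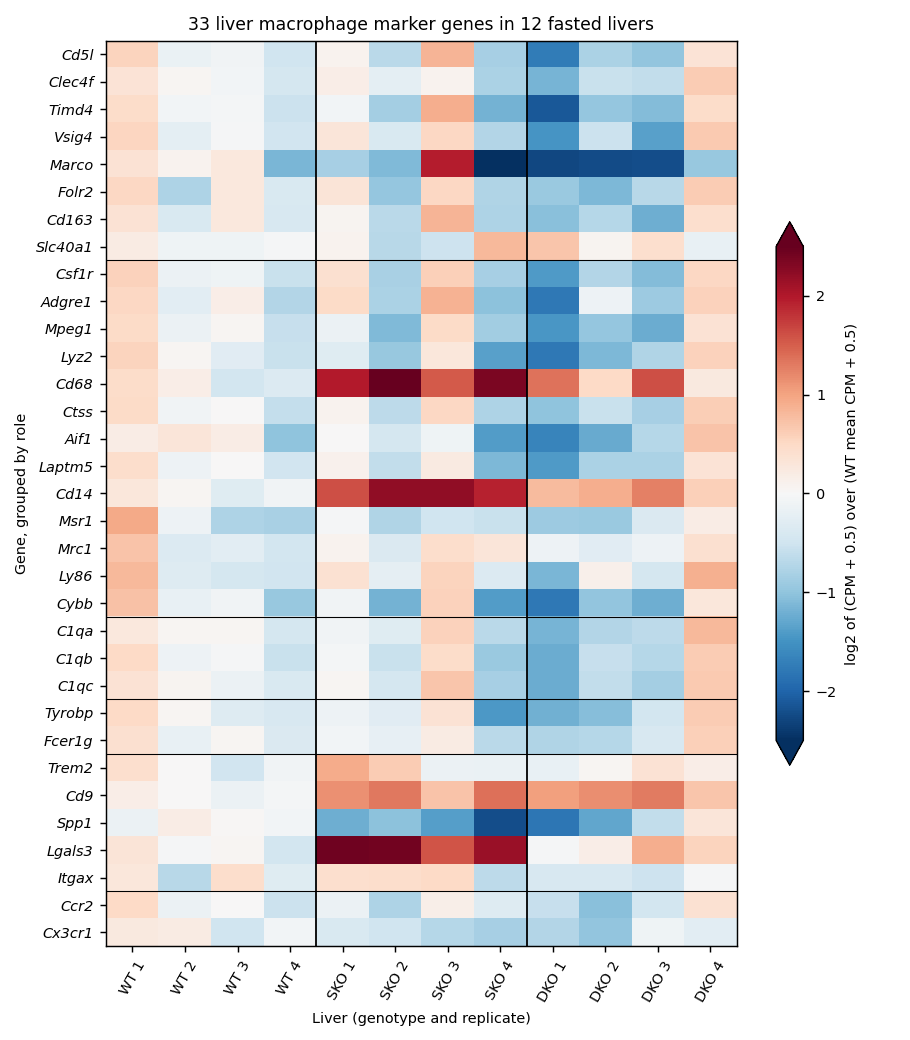
Each row is a member, each column a liver, and the colour is the log2 of CPM plus 0.5 over the WT mean plus 0.5, cut at 2.5 on either side. Cd68, Cd14, Lgals3 and Cd9 stand out as red in SKO livers, while most other members are blue in DKO replicates 1 to 3 and red in WT replicate 1, SKO replicate 3 and DKO replicate 4.

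Within each genotype a single liver carried the highest level of most members. WT replicate 1 was the highest WT liver for 30 of the 33 members, and it was the highest for 22.2% of the 14795 genes tested. SKO replicate 3 was the highest SKO liver for 22 of 33 members, against 25.4% of genes. DKO replicate 4 was the highest DKO liver for 26 of 33 members, against 34.1% of genes. Over the members, the median ratio to the median of the other 3 livers of the genotype was 1.54 for WT replicate 1, 1.8 for SKO replicate 3 and 2.8 for DKO replicate 4. The lowest levels were likewise shared, in WT replicate 4 for 24 members, SKO replicate 4 for 23 and DKO replicate 1 for 22. Cd68, Lgals3 and Cd9 went the other way in SKO replicate 3, where each was lower than in any other SKO liver. Markers of sinusoidal endothelial cells summed to 699 CPM in WT replicate 1 and to as little as 323 in another WT liver, while SKO livers had 431 to 535 and DKO livers 353 to 527 CPM, and their part in the rank of WT replicate 1 was not tested.

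Loss of Cpt2 in hepatocytes was first compared with WT, which asks whether macrophage markers change in a fasted liver that cannot oxidize long-chain fatty acids. Cd68, Cd14, Lgals3 and Cd9 rose, Spp1 fell, and the other members tested did not pass the threshold (edgeR quasi-likelihood test with Benjamini-Hochberg adjustment over all genes, adjusted p under 0.05). Of the 31 members tested 4 were higher, against 16.7% of all 14261 genes tested, and 1 was lower, against 15.4%. These shares of members, 12.9% and 3.23%, are at or under the background. The median log2 fold change was −0.04 over the members and 0.03 over all genes. Over all genes 2378 were higher and 2198 lower, and scaling by library totals instead gave 3759 and 1562. With that scaling the members still gave 4 higher and 1 lower. Trem2 and Cx3cr1 had too few counts to enter the test.

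Cd68 (ENSMUSG00000018774, chromosome 11) is a glycoprotein of lysosomes that is widely used as a macrophage marker. It was at 11.1, 8.97, 5.68 and 6.19 CPM in WT replicates 1 to 4, at 33.2, 54.1, 24.1 and 42.6 in SKO replicates 1 to 4, and at 21.3, 11.5, 25.3 and 9.61 in DKO replicates 1 to 4. Each SKO liver lay above each WT liver, and DKO replicate 4 lay within the WT range. The log2 fold change from WT to SKO was 2.28 (SE 0.28), with an adjusted p of 1.1e-04 by edgeR's quasi-likelihood test, and 2.46 (SE 0.24) without SKO replicate 3.

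Lgals3 (ENSMUSG00000050335, chromosome 14) encodes galectin-3, a lectin of phagocytes that also gathers on damaged lysosomes. It was at 5.31, 4.07, 4.31 and 2.88 CPM in WT livers, 24.6, 24.2, 13.3 and 20.3 in SKO livers, and 4.06, 4.73, 8.23 and 6.32 in DKO livers. SKO livers lay apart from both other genotypes, which overlapped. The log2 fold change from WT to SKO was 2.33 (SE 0.25), with an adjusted p of 4.1e-05 by edgeR.

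Cd14 (ENSMUSG00000051439), the co-receptor for bacterial lipopolysaccharide, was at 3.69, 3.05, 2.28 and 2.71 CPM in WT, 9.99, 15.4, 15.4 and 12.5 in SKO, and 5.41, 5.95, 7.67 and 4.7 in DKO livers. The 3 genotypes did not overlap, with DKO livers between WT and SKO livers. The log2 fold change from WT to SKO was 2.19 (SE 0.21), with an adjusted p of 2.5e-05 by edgeR.

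Cd9 (ENSMUSG00000030342, chromosome 6) is a tetraspanin of the cell surface and of exosomes. Its levels were 11.2, 10.1, 9 and 9.57 CPM in WT, 22.5, 25.5, 16.6 and 26.6 in SKO, and 20.9, 23, 25.4 and 16.5 in DKO livers. Both knockouts lay above WT and overlapped each other, and the liver with Xist counts was the lowest in each knockout. The log2 fold change from WT to SKO was 1.21 (SE 0.17), with an adjusted p of 2.8e-04 by edgeR.

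Spp1 (ENSMUSG00000029304, chromosome 5), the secreted matrix protein osteopontin, moved the other way. It was at 20.1, 25.6, 22.8 and 21.3 CPM in WT, 9.35, 10.7, 8.28 and 4.46 in SKO, and 6.09, 8.8, 14.4 and 27.8 in DKO livers. SKO livers lay under all WT livers, while DKO replicate 4 lay above them. The log2 fold change from WT to SKO was −1.44 (SE 0.23), with an adjusted p of 6.6e-04 by edgeR. Of the 5 cholangiocyte markers tested, which include Spp1, 2 fell and 0 rose, against 15.4% and 16.7% of all genes, the other being the biliary transcription factor Sox9 (log2 fold change −1.87, SE 0.32, adjusted p 0.0011). The cholangiocyte list summed to 42.7 to 54 CPM in WT and 21.4 to 27.3 in SKO livers. This sum includes Spp1 itself, at 22.5 ± 2.39 and 8.19 ± 2.67 CPM, so it is not independent of the Spp1 result. The part of cholangiocytes in that result was not tested.

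**Figure D2:**
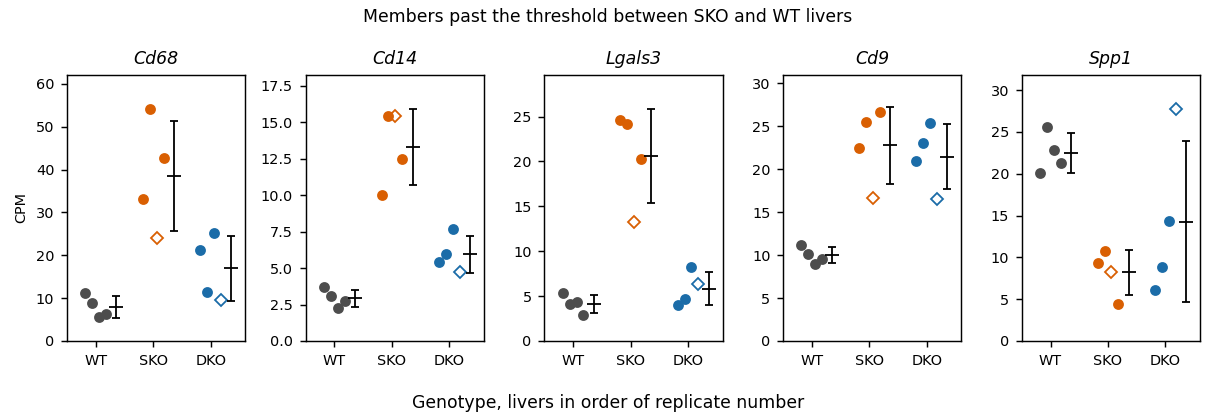
CPM of the 5 members that passed the threshold between SKO and WT livers, with 1 point per liver, open diamonds for the livers with Xist counts, and the mean and SD of 4 livers at the right of each genotype. Lgals3 is at 13.3 to 24.6 CPM in SKO livers and at most 8.23 in the other genotypes, whereas Cd9 is at 16.5 or above in all knockout livers.

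None of the 8 markers of resident Kupffer cells passed the threshold between SKO and WT livers with edgeR, DESeq2 or an unadjusted p under 0.05. Past the edgeR threshold 16.7% of all genes were higher and 15.4% lower. The median log2 fold change of the 8 markers was 0.02, with 5 above 0. Without SKO replicate 3 the median was −0.40, with 7 of the 8 below 0 and 1 called lower, against 15.2% of genes. Timd4 then had a log2 fold change of −0.68 (SE 0.34) and Cd5l of −0.40 (SE 0.27), neither past the threshold. Clec4f was at 115, 92.7, 86.1 and 66.4 CPM in WT livers and 101, 75.8, 96 and 52.1 in SKO livers, which overlapped, with a log2 fold change of −0.14 (SE 0.22). With all livers, Cd5l had a log2 fold change of 0.03 (SE 0.34), the phosphatidylserine receptor Timd4 of −0.06 (SE 0.44), the complement receptor Vsig4 of 0.02 (SE 0.29), the folate receptor Folr2 of −0.11 (SE 0.51) and the hemoglobin scavenger receptor Cd163 of 0.04 (SE 0.33). Folr2 had only 8 to 53 counts and overlaps the gene Gm10602 on the other strand. The iron exporter Slc40a1, which hepatocytes also express, had 0.06 (SE 0.28).

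Marco (ENSMUSG00000026390, chromosome 1), a scavenger receptor for bacteria and particles, was decided by 1 liver in this comparison. It was at 15.1, 12.3, 13.9 and 4.98 CPM in WT and at 6.28, 5.11, 46.8 and 1.23 in SKO livers, where SKO replicate 3 was the highest of all 12 livers. The log2 fold change was 0.37 (SE 0.79) with all livers and −1.44 (SE 0.49) without SKO replicate 3, with edgeR's adjusted p at 0.765 and 0.0417. No other member changed the side of the threshold when that liver was left out, where 15.2% of genes were lower, while the median of the members went from −0.04 to −0.36. The sign of that median was not stable, since it was 0.13 without WT replicate 1, 0.14 without SKO replicate 2, 0.12 without SKO replicate 4 and, with library totals, 0.14 beside 0.20 for all genes.

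The other 11 shared macrophage genes did not pass the threshold from WT to SKO livers either, where 16.7% of all genes rose and 15.4% fell. Without SKO replicate 3 the median of the 13 shared genes went from −0.09 to −0.38 and that of the C1q subunits from −0.04 to −0.34. Adgre1 then turned from 0.11 to −0.30 and Ly86 from 0.17 to −0.04, and Lyz2 went from −0.44 to −0.80 (adjusted p 0.059 by edgeR). Csf1r, the receptor for the macrophage growth factors CSF1 and IL-34, was at 67.3, 41, 41.9 and 30.5 CPM in WT, 59.6, 25.7, 68.4 and 25.2 in SKO, and 16.6, 27, 21 and 65.1 in the DKO livers. From WT to SKO the log2 fold change was −0.00 (SE 0.34). Hmgxb3 overlaps Csf1r on the other strand, with up to 467 counts. Of the remaining 10 shared genes other than Cd68 and Cd14, the log2 fold change ranged from −0.46 for the calcium-binding protein Aif1 and the scavenger receptor Msr1 to 0.17 for Ly86, a partner of a Toll-like receptor relative. The pore-forming protein Mpeg1 (−0.27, SE 0.33), Lyz2 (−0.44, SE 0.33), the protease Ctss (−0.09, SE 0.30), the lysosomal protein Laptm5 (−0.25, SE 0.30), the NADPH oxidase subunit Cybb (−0.30, SE 0.45), the adhesion receptor Adgre1 (0.11, SE 0.42) and the mannose receptor Mrc1 (0.16, SE 0.26) lay between them on the log2 scale.

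The complement genes C1qa, C1qb and C1qc, whose products form 1 complex, had log2 fold changes from WT to SKO of −0.04, −0.16 and −0.00. Tyrobp and Fcer1g, membrane adaptors that carry the signals of Trem2 and Fc receptors, had −0.25 (SE 0.36) and −0.15 (SE 0.24).

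DKO livers were then compared with WT livers, to see the markers when Atf3 was deleted together with Cpt2. Cd9 and Cd14 rose and Marco fell, and the other members tested did not pass the threshold. The 2 higher members compare with 6.06% of 14448 genes and the 1 lower member with 4.39%, and as shares of members these were 6.45% and 3.23%. The median log2 fold change was −0.34 over the members and 0.03 over all genes, with 24 of the 31 members below 0. Leaving out 1 liver moved the median of the members both ways, to −0.13 without WT replicate 1, −0.14 without DKO replicate 1, −0.53 without WT replicate 4 and −0.90 without DKO replicate 4, and it was −0.20 with library totals, where that of all genes was 0.20. Over all genes 876 were higher and 634 lower, and scaling by library totals gave 1788 and 469. The WT livers are those of the SKO comparison.

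Cd9 had a log2 fold change from WT to DKO of 1.11 (SE 0.16), with edgeR's adjusted p at 0.00826. Cd14 had 1.02 (SE 0.23), with an adjusted p of 0.0282, and Marco, which was at 1.98, 2.06, 2.11 and 5.78 CPM in DKO livers, had −1.95 (SE 0.45) with 0.0288. The calls of Cd14 and Marco were not kept when any of WT replicates 1 to 3 or DKO replicates 1 to 3 was left out, and that of Cd14 also not without WT replicate 4. Without WT replicate 1, for example, the log2 fold changes were 1.14 and −1.80, with adjusted p at 0.0559 and 0.0827. Cd68 (1.09, SE 0.34, adjusted p 0.069) and Lgals3 (0.50, SE 0.28, adjusted p 0.259) did not pass with edgeR. Cd68 was called with DESeq2 (adjusted p 0.0211, where 7.61% of genes were higher), with library totals and with no filter, and Marco was not called in the fit of all 12 livers (adjusted p 0.141 by edgeR).

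DKO replicate 4 decided most of what this comparison showed for the resident and shared markers. Clec4f was at 39.7, 61.1, 58.9 and 141 CPM in DKO replicates 1 to 4, Vsig4 at 7.44, 14.6, 8.03 and 34.1, and C1qa at 15.7, 21.4, 22.4 and 63.2. For each of these genes replicates 1 to 3 lay under every WT liver and replicate 4 above every WT liver, the highest of which were 115, 31.4 and 42.9 CPM. Without DKO replicate 4, 20 of the 31 members fell, against 17.5% of 14634 genes, and 3 rose, against 18.4%. The median log2 fold change of the members was then −0.90, and that of all genes 0.02. Ribosomal RNA took 1.4% to 2.69% of counts in these 3 DKO livers and 0.452% to 1.36% in WT livers, and mitochondrial genes took 4.51% to 4.76% and 4.73% to 5.98%, and their part in this result was not tested.

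The 20 members lower without that liver were 7 of the 8 resident markers, 7 of the 13 shared genes, the 3 C1q subunits, both adaptors and Spp1. Among the resident markers Marco had a log2 fold change of −2.49 (SE 0.36), Timd4 of −1.50 (SE 0.37), Cd5l of −1.13 (SE 0.27) and Clec4f of −0.76 (SE 0.20), with adjusted p from edgeR of 3.2e-04, 0.00871, 0.0075 and 0.0117. Csf1r, which was at 21.5 ± 5.22 CPM (n = 3) against 45.2 ± 15.6 (n = 4) in WT, had −1.07 (SE 0.25, adjusted p 0.00706), and Mpeg1 had −1.23 (SE 0.23, adjusted p 0.00163). C1qa, C1qb and C1qc had −0.85, −0.83 and −0.90, and Tyrobp and Fcer1g had −0.95 and −0.66. The genes that rose were Cd68 (1.28, SE 0.29), Cd14 (1.11, SE 0.23) and Cd9 (1.22, SE 0.13), so that members rose and fell in the same livers. Slc40a1 was the only resident marker above 0, with 0.43 (SE 0.15, adjusted p 0.0519).

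**Figure D3:**
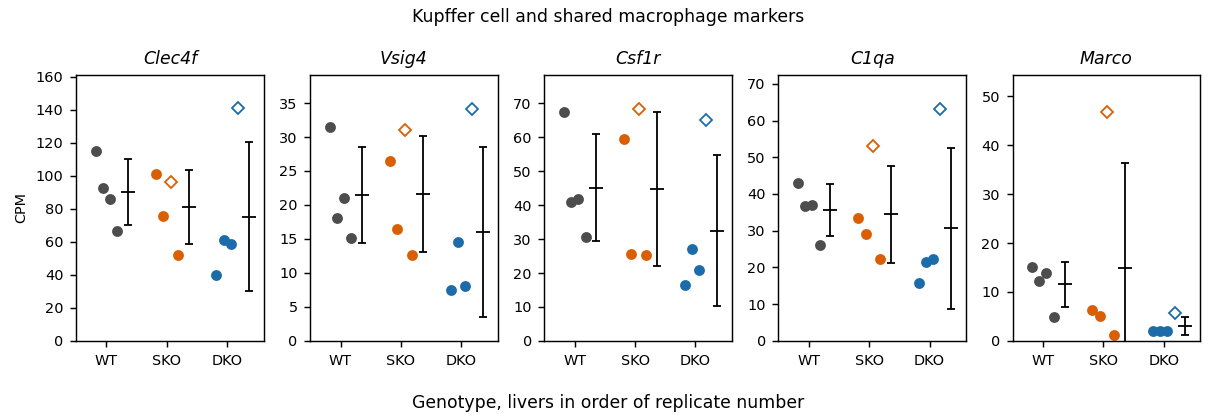
CPM of 3 resident Kupffer cell markers (Clec4f, Vsig4, Marco), Csf1r and C1qa by genotype, with 1 point per liver, open diamonds for the livers with Xist counts, and the mean and SD of 4 livers. DKO replicates 1 to 3 sit below all WT livers in each panel, where the lowest SKO livers also lie, and DKO replicate 4 sits above the WT livers for Clec4f, Vsig4 and C1qa.

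**Figure D4:**
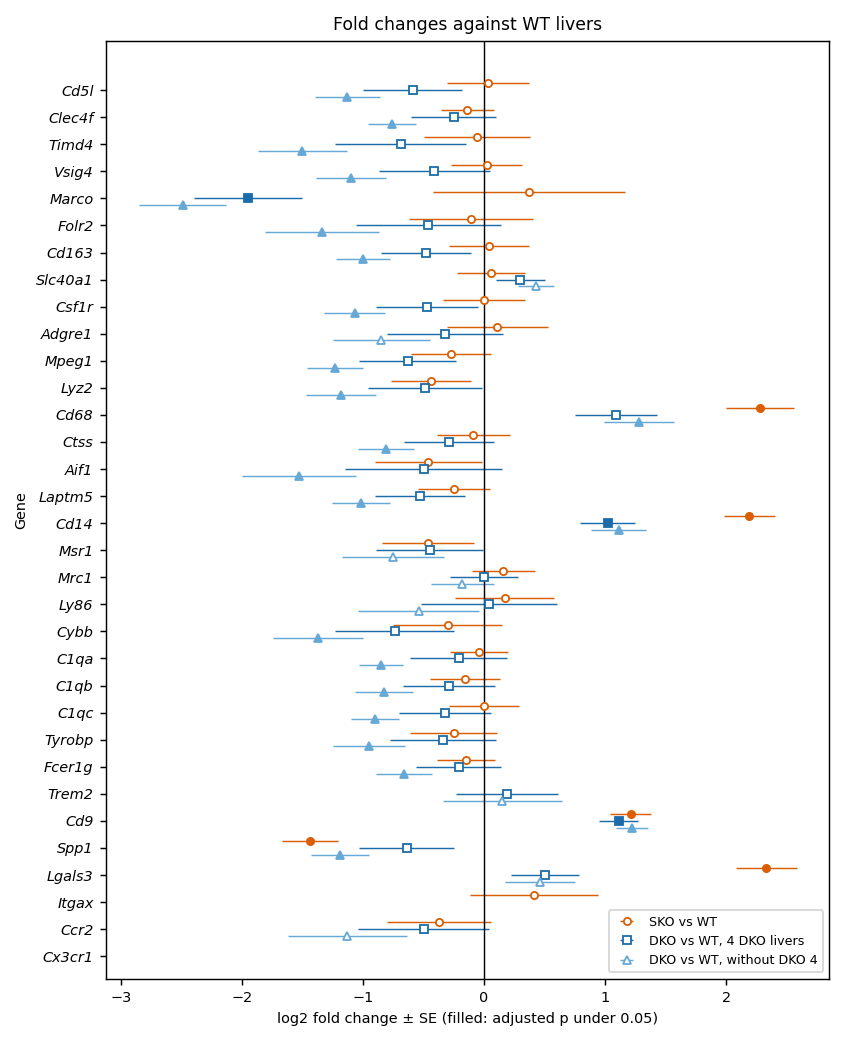
Log2 fold change against WT livers with its SE for each member tested, in SKO livers and in DKO livers with and without DKO replicate 4, with filled symbols where the adjusted p was under 0.05. Cd68, Cd14 and Cd9 lie to the right of 0 in all sets, and 20 members have filled symbols to the left of 0 without DKO replicate 4.

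The direct comparison of DKO with SKO livers tests whether the change from WT was another one when Atf3 was deleted too. None of the 32 members tested passed the threshold with edgeR, where 3 of all 14363 genes did (0.0209%), and 29 members lay below 0 with a median log2 fold change of −0.29. At an unadjusted p under 0.05, 4 members were lower (Lgals3, Cd14, Cd68 and Marco), against 2.38% of genes, and 0 were higher, against 4.11%. DESeq2 called Lgals3 and Cd14 lower, against 0.185% of the 16785 genes to which it gave an adjusted p.

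Lgals3 had the smallest p of the members, with a log2 fold change from SKO to DKO of −1.81 (SE 0.27), an unadjusted p of 4.7e-05 and an adjusted p of 0.112 by edgeR's quasi-likelihood test. The highest DKO liver, at 8.23 CPM, lay under the lowest SKO liver, at 13.3. Without DKO replicate 4 it was −1.86 (SE 0.29, adjusted p 0.0465), the only member then called, where 0.103% of genes were, and in the livers with Y-linked counts −2.02 (SE 0.26, adjusted p 0.0096). Cd14 had −1.17 (SE 0.21, adjusted p 0.182), Cd68 −1.18 (SE 0.34, adjusted p 0.472) and Marco −2.31 (SE 0.92, adjusted p 0.722). Cd9 had −0.09 (SE 0.18), and its levels overlapped between the knockouts.

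For the resident and shared markers the result depended on whether the livers with Xist counts were included. Without DKO replicate 4, 19 of 32 members were lower in DKO than in SKO livers at an unadjusted p under 0.05, against 3.45% of genes, and the median was −0.86. When both livers with Xist counts were left out, the median was −0.55 and 1 member, Lgals3, was called lower, against 0.0557% of 14358 genes. Without only SKO replicate 3 the median was −0.01, and leaving out each of the other livers but DKO replicate 4 put it between −0.50 and −0.11. In the livers with Y-linked counts, Clec4f had −0.53 (SE 0.25), Csf1r −0.79 (SE 0.32) and C1qa −0.52 (SE 0.20), with adjusted p of 0.736, 0.659 and 0.636 by edgeR, so none of these passed.

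Since most resident and shared markers were high in the same livers of a genotype, each member was also divided by Csf1r in the same liver, a description chosen after the values had been seen. Slc40a1, Cd68 and, in DKO replicate 4, Cd14 were exceptions, with 0.65, 0.566 and 1.23 times the median of the other livers of the genotype in SKO replicate 3 and 0.661, 0.452 and 0.79 times in DKO replicate 4. Across WT, SKO and DKO livers respectively, Clec4f was at 1.71 to 2.26, 1.4 to 2.95 and 2.16 to 2.8 times the CPM of Csf1r, and C1qb at 0.76 to 0.849, 0.588 to 0.957 and 0.867 to 1.04 times. Among other resident markers, the ratio was 0.382 to 0.64 for Vsig4 over the 12 livers, but 1.79 to 17.2 for Slc40a1. For Marco it was 0.163 to 0.332, 0.0488 to 0.684 and 0.0764 to 0.119 in the 3 genotypes. Cd68 was at 0.136 to 0.219 in WT and 0.352 to 2.11 in SKO livers, and in DKO replicates 1 to 4 it was at 1.28, 0.427, 1.2 and 0.148. Lgals3 was at 0.0788 to 0.103, 0.194 to 0.941 and 0.0971 to 0.392 in the 3 genotypes. Cd9 was at 0.166 to 0.313 in WT and 0.243 to 1.06 in SKO livers, with SKO replicate 3 inside the WT range. Cd14 was at 0.0545 to 0.0888 and 0.168 to 0.6, and Spp1 at 0.298 to 0.699 and 0.121 to 0.415. For DKO replicates 1 to 4 the ratio of Cd9 was 1.26, 0.852, 1.21 and 0.253, and that of Cd14 was 0.326, 0.22, 0.365 and 0.0722. Relative to Csf1r, therefore, Cd68, Lgals3 and Cd14 were higher in each SKO liver than in each WT liver, while Cd9 and Spp1 overlapped. C1qb was higher and Marco lower in each DKO liver than in each WT liver. The other C1q subunits overlapped between WT and DKO livers. C1qa was at 0.638 to 0.896 and 0.791 to 1.07, and C1qc at 0.629 to 0.843 and 0.787 to 0.85. The share of all genes that separate in this way was not measured. In DKO replicate 4, Cd68, Lgals3, Cd9 and Cd14 were within the WT range.

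**Figure D5:**
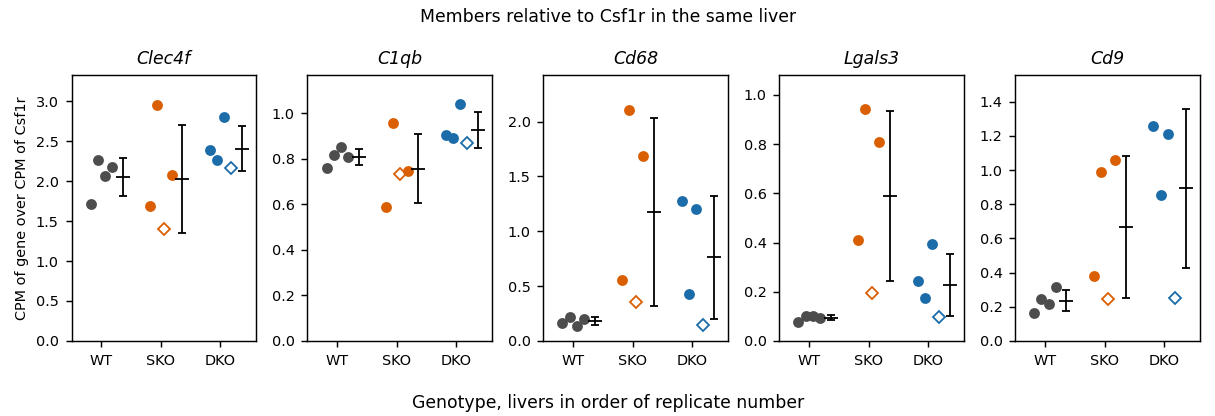
CPM of 5 members divided by the CPM of Csf1r in the same liver, with 1 point per liver, open diamonds for the livers with Xist counts, and the mean and SD of 4 livers. The ratio of Clec4f overlaps among genotypes, and those of Cd68 and Lgals3 are higher in all SKO livers than in all WT livers. That of C1qb is 0.867 or above in DKO and at most 0.849 in WT livers, while C1qa and C1qc, not shown, overlap.

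The least abundant members gave little to compare. Trem2 had 4 to 24 counts and was at 0.936, 0.572, 0.261 and 0.498 CPM in WT, 1.54, 1.16, 0.466 and 0.446 in SKO, and 0.435, 0.607, 0.875 and 0.702 in DKO livers. Its genotypes overlapped, and from SKO to DKO the log2 fold change was −0.45 (SE 0.48). Itgax was at 0.254 to 1.17, 0.279 to 1.24 and 0.36 to 0.702 CPM, and Ccr2, the receptor that brings monocytes out of the bone marrow, at 0.553 to 1.66, 0.405 to 1.19 and 0.243 to 1.51 CPM. Cx3cr1, the fractalkine receptor, had 0 to 13 counts and was under the filter of the edgeR tests. With DESeq2, which used no such filter, its log2 fold change from WT to SKO was −1.68 (SE 0.79, adjusted p 0.107). Its 0 in DKO replicate 2 allows a level of up to 0.186 CPM. Its span overlaps genes with up to 802 counts, so its few counts are uncertain. Ccr2 had −0.37 (SE 0.43) from WT to SKO, −0.50 (SE 0.54) from WT to DKO, −0.13 (SE 0.55) from SKO to DKO and, from WT to DKO, −1.13 (SE 0.49, adjusted p 0.0985 by edgeR) without DKO replicate 4, and did not pass.

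Among 16 further genes known from lipid-associated macrophages, 9 of the 15 tested rose and 2 fell from WT to SKO livers, against 16.7% and 15.4% of all genes, with a median log2 fold change of 0.83. Gpnmb, a glycoprotein of lysosomes, had 0 to 8 counts in WT livers and was at 26.3 to 54.1 CPM in SKO livers. Its CPM in DKO replicates 1 to 4 was 12.5, 9.71, 23.3 and 0.594, so that replicate 4 again lay close to WT. Cd63, a tetraspanin of late endosomes, went from 3.79 ± 0.726 to 46.4 ± 5.15 CPM (log2 fold change 3.62, SE 0.17, adjusted p 2.9e-07), and the lipid droplet protein Plin2 from 428 ± 78.1 to 3758 ± 877 (3.15, SE 0.21, adjusted p 2.4e-06, edgeR). Hepatocytes also express Plin2, and many of the listed genes are not specific to macrophages.

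In DKO livers 6 of the 14 tested genes of this list rose from WT and 0 fell, against 6.06% and 4.39% of all genes, and without DKO replicate 4, 9 rose and 4 fell, against 18.4% and 17.5%. Of 16 further Kupffer cell genes, 2 rose and 1 fell from WT to SKO livers, under the 16.7% and 15.4% of all genes, namely the heme-degrading enzyme Hmox1 (2.63, SE 0.43) and the transcription regulator Id3 (1.27, SE 0.23) against complement C6 (−1.29, SE 0.42), which hepatocytes also make. In DKO livers 1 of 15 tested Kupffer genes rose from WT and 0 fell. Without DKO replicate 4, 2 of 16 rose and 4 fell, with a median of −0.38 against −1.11 for the 8 resident members. Of the 11 growth factor and transcription factor genes tested, 2 rose and 1 fell from WT to SKO livers, against 16.7% and 15.4% of all genes. Their median log2 fold change was 0.04. The genes that rose were the transcription regulators Id1 (0.93, SE 0.26) and Smad4 (0.38, SE 0.12).

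Few genes of inflammation had counts enough to be tested between WT and SKO livers. Of 12 chemokines listed 5 were tested, where 0 rose and Ccl9 fell (−1.20, SE 0.17), and of 10 cytokines 5 were tested, where 0 rose and Il18 fell (−1.84, SE 0.24). Over all genes 16.7% rose and 15.4% fell. No chemokine or cytokine was higher at an unadjusted p under 0.05, where 22% of genes were, or with DESeq2, where 13.2% of the genes with an adjusted p were. Of 11 Fc and pattern recognition receptors 0 passed in either direction with edgeR, DESeq2 or an unadjusted p under 0.05, while the member Cd14, a receptor of the same kind, rose. Cxcl16, a chemokine made by macrophages, had 0.46 (SE 0.25, adjusted p 0.186 by edgeR).

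Markers of other cells were measured in the same livers. From WT to SKO, 0 of 12 sinusoidal endothelial markers, 0 of 8 general leukocyte markers, 0 of 4 dendritic cell, 0 of 3 lymphocyte and 0 of 1 neutrophil markers tested passed with edgeR, and 0 of these did at an unadjusted p under 0.05 or with DESeq2. Of 3 monocyte markers tested 1 fell, the plasma and matrix protein Fn1, which hepatocytes also make and which was at 1730 ± 231 CPM in WT livers. Of 12 stellate cell markers 2 rose (Dcn and Ecm1), of 5 cell cycle genes 1 fell, and of 5 erythroid genes 2 rose and 1 fell. Over all genes 16.7% rose and 15.4% fell. The share of the stellate list that rose was close to the former, while 0 of its markers fell. Of 10 hepatocyte markers 8 fell, a larger share than over all genes, with a median log2 fold change of −0.92. The part of these lists in the member results was not tested.

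The general leukocyte markers summed to 133 to 158 CPM across WT livers, while SKO livers had 99.1 to 162 CPM and DKO livers 108 to 138, with the highest DKO value in replicate 4. Without DKO replicate 4, 1 of these 8 leukocyte markers, 0 of 12 endothelial markers, 2 of 4 dendritic cell markers and 8 of 10 hepatocyte markers were lower in DKO than in WT livers, against 17.5% of all genes. The median log2 fold changes of these lists were then −0.78 for leukocytes, −0.51 for dendritic cells, −0.77 for hepatocytes and −0.05 for endothelial cells, with −0.77 for the 3 monocyte markers tested and −0.90 for the members, so that values below 0 were not particular to the macrophage markers. The hepatocyte list summed to 115566 CPM in DKO replicate 4, and its part in the level of the macrophage markers there was not tested.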

How the data were processed

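Bulk RNA-seq of 12 mouse livers was analysed, with groups and replicate numbers from the labels. The authors deposited raw counts per gene, with the gene length in bases as another column, and FPKM values. Processing notes of the submitters name HISAT2, GRCm38 and mm10. The counter, its strand setting and versions are not given in the sources used here, and gene coordinates in the table matched the GRCm38 annotation for 0 of 33 members, so none are printed. The authors' own comparison tables hold fold changes and p-values and were not used.

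Counts were tested with edgeR 4.0.16 in R 4.3.3 (filterByExpr, TMM, quasi-likelihood, two-sided, 8 livers per comparison, Benjamini-Hochberg over all genes tested, threshold 0.05). CPM used TMM factors over the 12 livers. FPKM served for levels between genes. The code was tested on simulated counts. Alternatives were DESeq2 1.42.0, RLE or library totals, no filter, a replicate block, all 12 livers, each liver left out, and only livers with Y-linked counts. The ratio to Csf1r and the counts for other lists without DKO replicate 4 were added after seeing the data.

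The members and lists were chosen with earlier results of these data known. All members may be named, with full values for those past a threshold and those too low to test, and up to 3 genes of each further list. Gpnmb, Lyz1, Alb, Atf3 and Cpt2 were named in addition. The result of 1 listed gene is not reported here. Libraries held 14710304 to 20030055 counts, so 3 counts equal 0.15 to 0.204 CPM, a limit that covers counting error only. No libraries of a genotype were copies (chi-square per degree of freedom at least 18.5). No source says that livers came from separate litters, so p-values measure the spread between these livers.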

Additional observations from a re-analysis of the deposited data

Results flagged for a closer look

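In a group of 4 livers, a value was singled out where its gap to the nearest other liver took a larger share of the range of the group than Dixon's critical value at the 95% level. Of 99 values examined 9 met this, and chance alone gives about 1 in 20, or 4.95. DKO replicate 4 held 4 of them and was the highest liver in each, with Marco at 5.78 CPM (1.98 to 2.11 in the other DKO livers), Folr2 at 2.86 (0.486 to 0.823), Mpeg1 at 59.4 (16.4 to 23.4) and C1qa at 63.2 (15.7 to 22.4). SKO replicate 3 had Marco at 46.8 CPM, against 1.23 to 6.28 in the other SKO livers. WT replicate 1 had Mrc1 at 69.4 CPM (30.3 to 34.8) and Ly86 at 4.21 (1.44 to 1.65). The values lower than the rest were Aif1 at 1.05 CPM in WT replicate 4 (3 to 3.31) and Itgax at 0.279 in SKO replicate 4 (1.15 to 1.24), the latter from 5 counts.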

How the results depend on the processing

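From WT to SKO livers the 5 member calls (4 higher, 1 lower) were kept in number in each alternative with at most 1 call added, and the count of genes called ranged from 3617 to 4711 on leaving out 1 liver (main 4576). Marco reversed to −1.44 without SKO replicate 3, which is also the set of livers with Y-linked counts, and was then called, and its log2 fold change ranged up to 0.76 on leaving out another liver. From WT to DKO livers the 1510 genes called became 2508 with DESeq2, 691 with a replicate block, 5253 in the livers with Y-linked counts and 244 (without WT replicate 2) to 5253 (without DKO replicate 4) on leaving out 1 liver. The 3 members called became 23 in the livers with Y-linked counts, 1 with the replicate block and 1 to 23 on leaving out 1 liver. From SKO to DKO livers the 3 genes called became 91 with DESeq2, 35 with no filter, 21 in the livers with Y-linked counts, 0 with the replicate block and 0 to 15 on leaving out 1 liver, and the 0 members called became 2 with DESeq2 or no filter, 1 with all 12 livers or the livers with Y-linked counts, and 0 to 1 on leaving out 1 liver. The cause was not tested. No source says that the replicate numbers pair livers. Deviations of same-numbered livers from the mean of their genotype correlated between −0.34 and 0.0887. With 4 livers in each genotype, these values cannot decide whether the numbers pair livers. Scaling by library totals moved the median of all genes from 0.03 to 0.20 in both comparisons with WT. Counts were low for Trem2, Itgax, Ccr2, Cx3cr1 and Folr2, which had at most 53 counts in a liver.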
